A study of Mus musculus with 8 samples.

Results

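The 10 genes described here encode chemokines that are made in or act on the thymus, namely Ccl21a, Ccl19, Ccl25, Ccl17, Ccl22, Ccl5, Cxcl12, Cxcl10, Cx3cl1 and Xcl1. They were listed by symbol, matched to the Ensembl identifiers of the deposited table through the GENCODE annotation, and all 10 of them were among the 17006 genes tested of the 25466 genes listed. The libraries came from medullary thymic epithelial cells (mTECs) of wild-type mice, and the methods of the study give the strain as BL6N6 and the age as 4 to 6 weeks. Cells were sorted by flow cytometry as CD45-negative, EpCAM-positive and CDR1-negative, and then by Tspan8, a surface protein that the study uses as an example of a tissue-restricted antigen, and by MHC class II (MHCII). The resulting 4 subsets, Tspan8negMHCIIlo, Tspan8negMHCIIhi, Tspan8posMHCIIhi and Tspan8posMHCIIlo, had 2 biological replicates each, and by the account of the study the MHCIIlo cells hold immature as well as late mTECs. All 8 libraries share the wild-type genotype, no treatment is named, and whether animals were pooled is not given in the sources used here.

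Chemokines are small secreted proteins that direct migrating cells through receptors coupled to G proteins. In the thymus they bring progenitors in from the blood, lead positively selected thymocytes from the cortex to the medulla, and position dendritic cells near mTECs. Ccl21a and Ccl19 share the receptor Ccr7, Ccl25 acts on Ccr9, and Ccl17 and Ccl22 share Ccr4, while Ccl5 acts on several receptors. Cxcl12 acts on Cxcr4, the interferon-induced Cxcl10 on Cxcr3, the membrane-bound Cx3cl1 on Cx3cr1 and Xcl1 on Xcr1 of cross-presenting dendritic cells.

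Library totals ranged from 1941518 to 7783841 counts, so that the floor used here, 3 counts, corresponded to between 0.385 and 1.65 CPM, the counts scaled to a common library size with TMM factors. Tspan8 had a mean of 9.13 and 7.89 CPM in the Tspan8neg subsets against 357 and 378 CPM in the Tspan8pos subsets. H2-Ab1, an MHCII gene, had 5040 and 2520 CPM in the MHCIIhi subsets against 1890 and 503 CPM in the MHCIIlo subsets. Thymocyte markers, 13 genes, summed to 534 and 1520 CPM in the replicates of Tspan8negMHCIIlo and to between 80.7 and 259 CPM in the other 6 libraries. The 8 mTEC markers summed to between 4850 and 10100 CPM. Sums were 473 to 1190 CPM for 7 markers of cortical epithelium and 19.3 to 51.2 CPM for 4 of B cells. Ctsl made up 953 and 605 CPM of the cortical sums in Tspan8negMHCIIlo, and Tbata 475 and 506 CPM in Tspan8negMHCIIhi. Psmb11 was between 2.2 and 18.9 CPM in all libraries. The replicates of Tspan8negMHCIIlo also stood farthest apart, with a chi-square statistic per gene of 10.6 against 3.47 to 5.63 in the other subsets.

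The chemokine genes fell into 4 patterns. Ccl21a and Cxcl12 were highest in Tspan8negMHCIIlo. Ccl19, Ccl25, Ccl22, Ccl5 and Xcl1 were highest in Tspan8negMHCIIhi in both replicates, and the counts of Ccl17 were also highest there though they overlapped with Tspan8negMHCIIlo. Cxcl10 was high in both Tspan8neg subsets, and Cx3cl1 varied little. No member was called higher in Tspan8pos than in Tspan8neg cells at the same MHCII level, where 12.1% of all genes tested were called higher in MHCIIlo and 11% in MHCIIhi cells. Calls needed, in edgeR's quasi-likelihood test, an adjusted p below 0.01 together with a log2 fold change of 1 or more in size.

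**Figure D1:**
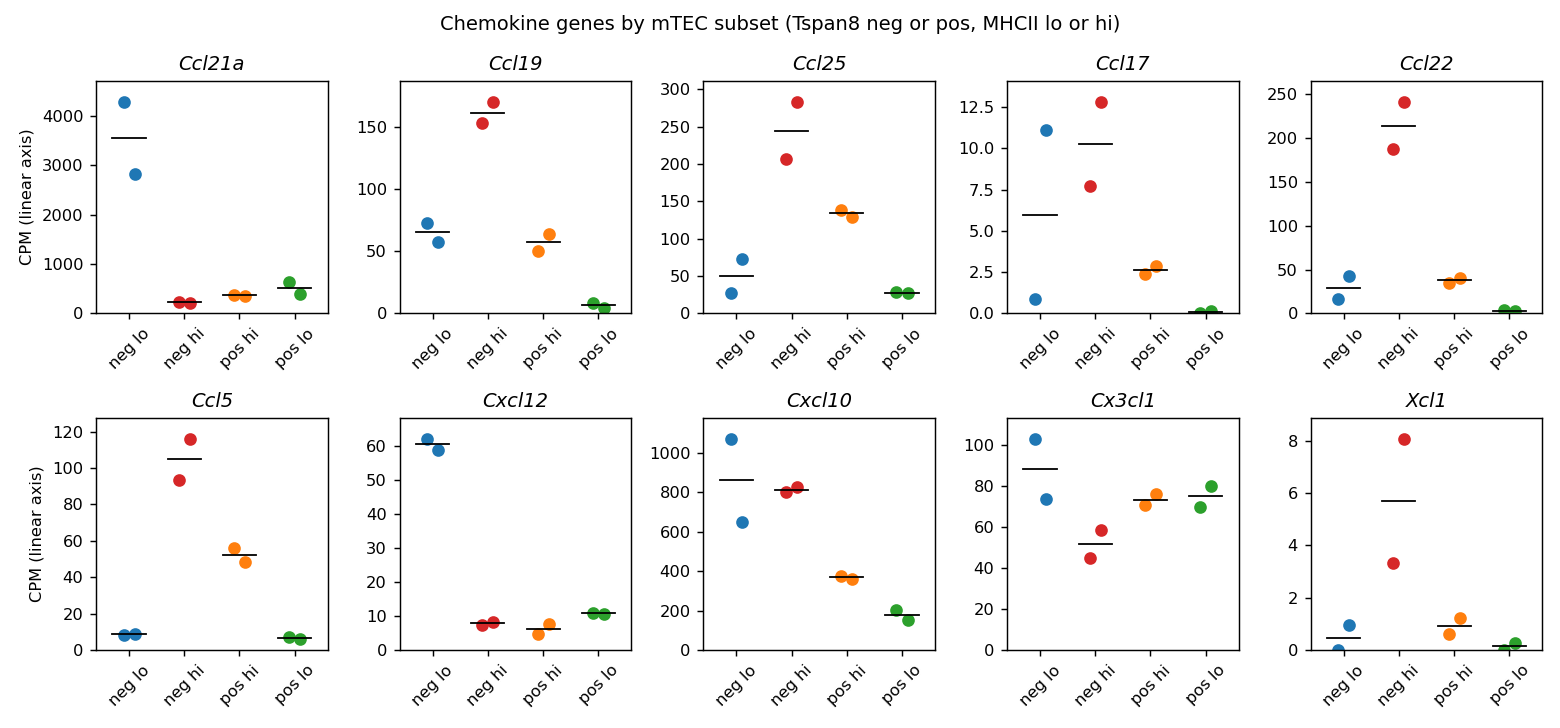
CPM (linear axes that start at 0) of each of the 10 chemokine genes in the 8 libraries, by subset; points are libraries and bars are means of 2 libraries. Ccl21a and Cxcl12 stand highest in Tspan8negMHCIIlo, and Ccl19, Ccl25, Ccl22 and Ccl5 in Tspan8negMHCIIhi.

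Ccl21a, a ligand of Ccr7 known to draw thymocytes into the medulla, was at 4280 and 2830 CPM in Tspan8negMHCIIlo. It was at 226 and 217 CPM in Tspan8negMHCIIhi, at 377 and 359 CPM in Tspan8posMHCIIhi and at 628 and 393 CPM in Tspan8posMHCIIlo. Tspan8negMHCIIlo did not overlap with any other subset, and its lower replicate was above every other library. The level was 16-fold lower in Tspan8negMHCIIhi than in Tspan8negMHCIIlo, with a log2 fold change of -4.00 ± 0.248 (SE; edgeR adjusted p = 1.32e-06). It was 6.99-fold lower in Tspan8posMHCIIlo than in Tspan8negMHCIIlo, with a log2 fold change of -2.81 ± 0.236 (edgeR adjusted p = 4.88e-06). Among the 3 lower subsets the order was Tspan8posMHCIIlo, Tspan8posMHCIIhi and Tspan8negMHCIIhi, and neither pair of neighbours was called. For Tspan8posMHCIIhi the log2 fold change was -0.47 against Tspan8posMHCIIlo (edgeR adjusted p = 0.194) and 0.73 against Tspan8negMHCIIhi (edgeR adjusted p = 0.0237). The outer pair of these differed by 1.20 on the log2 scale (edgeR adjusted p = 0.00111), a call that was lost without replicate 1 of Tspan8posMHCIIlo, at 0.83, and without replicate 1 or 2 of Tspan8negMHCIIhi, at 1.13 and 1.07. Bulk libraries cannot tell a lower share of cells with a transcript from less transcript in each cell, here or for any gene below.

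Cxcl12 (chr6:117168535-117181367, plus strand), the ligand of Cxcr4, was also highest in Tspan8negMHCIIlo. It was at 62.1 and 58.9 CPM in Tspan8negMHCIIlo, at 7.49 and 8.33 CPM in Tspan8negMHCIIhi, at 4.78 and 7.72 CPM in Tspan8posMHCIIhi and at 11 and 10.5 CPM in Tspan8posMHCIIlo. Cxcl12 was 7.58-fold lower in Tspan8negMHCIIhi than in Tspan8negMHCIIlo (log2 fold change -2.92 ± 0.232, edgeR adjusted p = 5.26e-06). The 3 other subsets did not differ from each other by a call, the largest of these differences being -0.77 for Tspan8posMHCIIhi against Tspan8posMHCIIlo (edgeR adjusted p = 0.0795). Cxcl12 is also known from fibroblasts and endothelium. In Tspan8negMHCIIhi against Tspan8negMHCIIlo, 3 of the 5 endothelial markers (Pecam1, Cdh5 and Tek) were called lower and 0 higher, with a median log2 fold change of -2.36. Of all genes, 9.67% were called lower and 13.1% higher in that contrast. In Tspan8posMHCIIlo, where Cxcl12 was 5.66-fold lower than in Tspan8negMHCIIlo, Pecam1 was called lower (log2 fold change -1.13) and Tek higher (1.41), and the 5 summed to 110 and 88.7 CPM against 128 and 108 CPM. Of the 7 fibroblast markers, Dcn and Pdgfra were called lower and Col1a1 and Pdgfrb higher in Tspan8negMHCIIhi than in Tspan8negMHCIIlo, with a median log2 fold change of -1.51 and sums of 184 and 183 CPM against 111 and 201 CPM. Dcn was at 61 and 69.1 CPM in Tspan8negMHCIIlo and at 21.2 and 24.2 CPM in Tspan8negMHCIIhi, and was also called lower in Tspan8posMHCIIlo (log2 fold change -1.60). Of the 7 markers of cortical epithelium, 1 was called lower and 3 higher in Tspan8negMHCIIhi than in Tspan8negMHCIIlo. In Tspan8posMHCIIlo against Tspan8negMHCIIlo, 4 of them were called lower and 0 higher, against 9.34% and 12.1% of all genes. The part of any of these cells in the level of Cxcl12 was not tested.

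Ccl19, the other ligand of Ccr7, went the opposite way to Ccl21a between the Tspan8neg subsets. It was at 72.7 and 57.5 CPM in Tspan8negMHCIIlo, at 153 and 170 CPM in Tspan8negMHCIIhi, at 50.4 and 64.2 CPM in Tspan8posMHCIIhi and at 8.24 and 4.5 CPM in Tspan8posMHCIIlo. Tspan8negMHCIIhi was above and Tspan8posMHCIIlo below all other libraries, while the remaining pair overlapped and did not differ by a call (log2 fold change -0.18, edgeR adjusted p = 0.476). Ccl19 was 2.48-fold higher in Tspan8negMHCIIhi than in Tspan8negMHCIIlo (log2 fold change 1.31 ± 0.193, edgeR adjusted p = 0.000299). Within the Tspan8pos cells it was 10.4-fold higher in MHCIIhi (log2 fold change 3.38 ± 0.269, edgeR adjusted p = 1.88e-05). Tspan8posMHCIIlo was 11.8-fold lower than Tspan8negMHCIIlo (log2 fold change -3.56 ± 0.269, edgeR adjusted p = 2.27e-06).

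Ccl19 and Ccl21a lie next to each other, 16.3 kb apart on the minus strand of chromosome 4 (GRCm38), with no protein-coding gene between them. Ccl19 spans chr4:42754525-42756577 and Ccl21a chr4:42772860-42773993. The windows from 250 bases before to 50 bases after the RefSeq start (GRCm38.p6) are shown because these neighbours differed in direction between subsets, as chr4:42773942-42774241 for Ccl21a and chr4:42756316-42756615 for Ccl19, both 5′ to 3′ on the minus strand. Capitals mark matches to the interferon-stimulated response element (ISRE).
Ccl21a: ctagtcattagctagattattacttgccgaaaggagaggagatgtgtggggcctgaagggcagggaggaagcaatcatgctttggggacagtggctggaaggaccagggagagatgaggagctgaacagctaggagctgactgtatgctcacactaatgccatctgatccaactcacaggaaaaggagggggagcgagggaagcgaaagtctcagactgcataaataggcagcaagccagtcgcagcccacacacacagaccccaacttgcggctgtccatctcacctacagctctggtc
Ccl19: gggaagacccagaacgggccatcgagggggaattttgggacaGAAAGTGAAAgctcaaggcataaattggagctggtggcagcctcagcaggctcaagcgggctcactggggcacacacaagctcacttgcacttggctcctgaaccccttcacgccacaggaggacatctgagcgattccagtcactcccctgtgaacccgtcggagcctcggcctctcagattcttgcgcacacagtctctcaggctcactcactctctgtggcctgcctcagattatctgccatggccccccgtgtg
The match in Ccl19 lies at bases -208 to -199 from the start, and 3.44% of all 32851 promoter windows hold this motif on either strand. Neither window matched the other motifs searched on both strands, namely the NF-kB consensus (8.46% of windows), the GAS element TTCNNNGAA (8.3%) and the AP-1 site TGANTCA (7.81%), nor the TATA box TATAAA on the strand of the gene (8.32%).

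Both genes have near-identical copies on chromosome 4, between which reads of 54 bases cannot always be placed. The copy of Ccl21a in the table, Gm21541 (chr4:41903610-41904743, plus strand), matched it in 864 of 870 transcript bases, and 70% of the 54-base windows of Ccl21a also occur in the copy. Of the 6 differences, 2 lie in the coding sequence, as T84A and C194T with positions counted from 1 at the first coding base and the base of Ccl21a written first. They are shown with 14 bases before and 15 after, the differing base in capitals, because only reads over such bases separate the genes.
Ccl21a T84A: agtgatggagggggTcaggactgctgcctt
Gm21541 T84A: agtgatggagggggAcaggactgctgcctt
Ccl21a C194T: ggcaatcctgttctCaccccggaagcactc
Gm21541 C194T: ggcaatcctgttctTaccccggaagcactc
Gm21541 was at 808 and 490 CPM in Tspan8negMHCIIlo and between 67.7 and 109 CPM in the other libraries, and it took 14.7 to 24.6% of the counts of the pair. It was lower in the same subsets as Ccl21a, by 3.17 on the log2 scale in Tspan8negMHCIIhi (-3.17, edgeR adjusted p = 6.1e-06) against Tspan8negMHCIIlo. Gm2564 (chr4:42629719-42631714, plus strand), a copy of Ccl19 with 98.84% identity over 687 bases, took a larger and less even share, from 31.7 to 72.3% of the counts of its pair. With the counts of all copies in the table added, Ccl21a kept its calls in the contrasts within a Tspan8 or MHCII level. Ccl19 then differed between the Tspan8neg subsets by 0.87 on the log2 scale (edgeR adjusted p = 0.000663). This was under the limit on the fold change, so that the call held only with the copies counted apart. Gm2564 alone was not called there (log2 fold change 0.57, edgeR adjusted p = 0.0413). Whether reads of Ccl19 and Gm2564 were counted in the wrong gene was not tested. Further copies are annotated but not in the table. For Ccl21a these are Gm13304 (99.40% identity over 837 bases), Ccl21b and Gm10591 (99.50% over 402 bases each), and for Ccl19 it is Ccl19-ps3. Where reads from them were counted was not tested. Ccl21a and Ccl19 also overlap 4930578G10Rik on the opposite strand, and counting by strand is not settled by the sources.

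**Figure D2:**
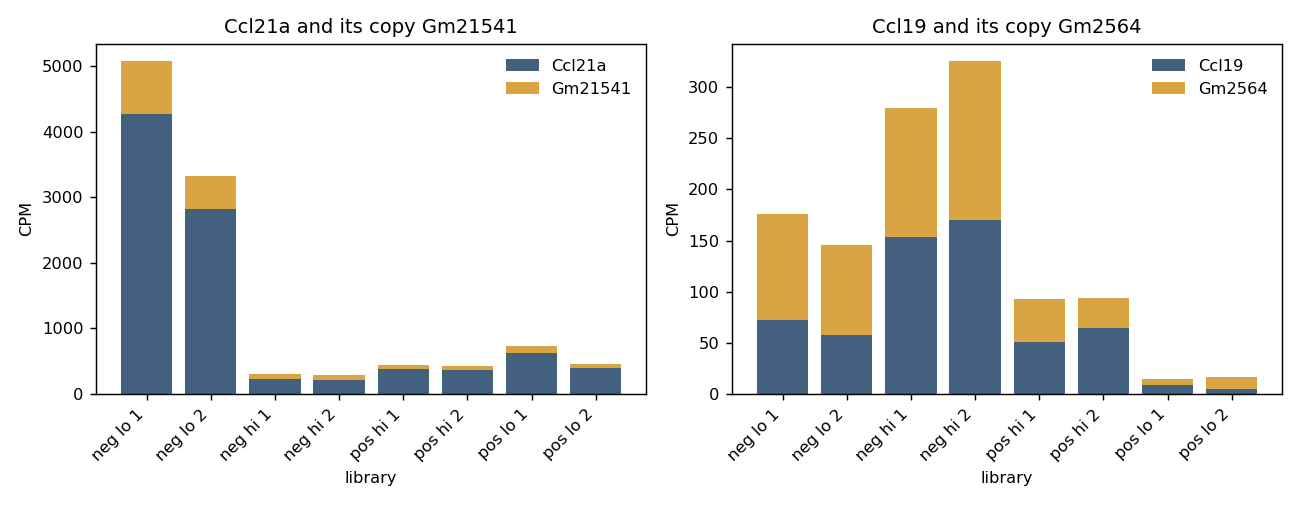
CPM of Ccl21a with its copy Gm21541 (left) and of Ccl19 with its copy Gm2564 (right), stacked, in each of the 8 libraries; neg and pos give Tspan8, lo and hi MHCII. Gm21541 is the smaller part of its pair in every library, while Gm2564 ranges from 31.7 to 72.3% of its pair.

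Ccl25, the ligand of Ccr9 and a known attractant of thymic progenitors, rose with MHCII in both Tspan8neg and Tspan8pos cells. It was at 27.8 and 73.3 CPM in Tspan8negMHCIIlo, at 207 and 283 CPM in Tspan8negMHCIIhi, at 139 and 129 CPM in Tspan8posMHCIIhi and at 28.6 and 27 CPM in Tspan8posMHCIIlo. Both MHCIIhi subsets were above both MHCIIlo subsets in every library. The MHCIIhi cells had 4.81 times the level of the MHCIIlo cells among Tspan8neg (log2 fold change 2.27 ± 0.327, edgeR adjusted p = 0.000262) and 4.84 times among Tspan8pos (log2 fold change 2.28 ± 0.350, edgeR adjusted p = 0.00121). The latter call was lost without replicate 1 of Tspan8posMHCIIhi, at 2.24, and without replicate 1 or 2 of Tspan8posMHCIIlo, at 2.33 and 2.23. Tspan8 made no called difference to Ccl25 (log2 fold changes -0.89 and -0.88), though without replicate 1 of Tspan8negMHCIIlo it was called lower in Tspan8posMHCIIlo, at -1.42. With MHCII among Tspan8neg cells, 3 of the 7 markers of cortical epithelium were called higher and 1 lower, against 13.1% and 9.67% of all genes. Among Tspan8pos cells 2 were called higher and 0 lower, against 4.59% and 2.62% of all genes. Mean CPM among Tspan8neg cells rose with MHCII for Tbata (128 to 490), Dll4 (20.9 to 54) and Enpep (7.28 to 18.1). It also rose for Ly75 (45 to 68.7) and fell for Ctsl (779 to 140), Prss16 (98.3 to 36) and Psmb11 (12.7 to 6.88). Ctsl and Prss16 also had lower means in Tspan8posMHCIIhi than in Tspan8posMHCIIlo. The part of cortical cells in the level of Ccl25 was not tested. Ccl25 (chr8:4325210-4360020, plus strand) overlaps Elavl1 on the opposite strand and is uncertain because counting by strand is not settled.

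Ccl22 and Ccl17, the ligands of Ccr4, lie on chromosome 8 on either side of Cx3cl1, with gaps of 20.3 and 28.0 kb and no other protein-coding gene between them. Ccl22 (chr8:94745590-94751699, plus strand) was at 16 and 42.9 CPM in Tspan8negMHCIIlo, at 187 and 241 CPM in Tspan8negMHCIIhi, at 34.9 and 40.6 CPM in Tspan8posMHCIIhi and at 3.3 and 2.73 CPM in Tspan8posMHCIIlo. Only Tspan8negMHCIIlo and Tspan8posMHCIIhi overlapped. Ccl22 was 7.17-fold higher in Tspan8negMHCIIhi than in Tspan8negMHCIIlo (log2 fold change 2.84 ± 0.322, edgeR adjusted p = 5.33e-05). It was 5.68-fold lower in Tspan8posMHCIIhi than in Tspan8negMHCIIhi (log2 fold change -2.51 ± 0.311, edgeR adjusted p = 9.57e-05). Against Tspan8posMHCIIlo, Tspan8posMHCIIhi was 13.1-fold higher (log2 fold change 3.71 ± 0.472) and Tspan8negMHCIIlo 10.4-fold higher (log2 fold change of Tspan8posMHCIIlo -3.37 ± 0.485), and both calls were lost without replicate 2 of Tspan8posMHCIIlo, at 3.51 and -3.16. Ccl22 is a known product of dendritic cells. Of 12 markers of dendritic cells and macrophages, 10 were tested, and 6 were called higher and 0 lower in Tspan8negMHCIIhi than in Tspan8negMHCIIlo. Of all genes, 13.1% were called higher and 9.67% lower there, and 11% higher and 7.45% lower between the MHCIIhi subsets. In Tspan8posMHCIIhi against Tspan8negMHCIIhi, where Ccl22 was 5.68-fold lower, Adgre1, C1qb, Flt3 and Zbtb46 were called lower and 1, Itgam, higher, with a median log2 fold change of -0.85. The 12 summed to 466 and 539 CPM in Tspan8negMHCIIhi and to 469 and 494 CPM in Tspan8posMHCIIhi, with Itgam at 13.7 and 22.6 CPM in the former and at 144 and 164 CPM in the latter. Lyz2 was the highest of them in both MHCIIhi subsets, Flt3 was at 16.2 and 17.4 CPM in Tspan8negMHCIIhi and at 2.19 and 3.66 CPM in Tspan8posMHCIIhi, and Clec9a was at or under 1.28 CPM in all libraries. The part of such cells in the level of Ccl22 was not tested.

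Ccl17 (chr8:94810453-94812036, plus strand) had few reads, and its replicates in Tspan8negMHCIIlo differed most. Its counts were 3 and 47 in Tspan8negMHCIIlo, 37 and 100 in Tspan8negMHCIIhi, 12 and 14 in Tspan8posMHCIIhi, and 0 and 1 in Tspan8posMHCIIlo. In CPM it was at 0.843 and 11.1 in Tspan8negMHCIIlo and at 7.69 and 12.8 in Tspan8negMHCIIhi, so that these subsets overlapped. The ratio of Tspan8negMHCIIlo to Tspan8posMHCIIlo was 58.6 with a 95% counting interval from 10 to 2360, and the fitted difference was called (log2 fold change -5.53 ± 1.37, edgeR adjusted p = 0.00763). That call was lost when any 1 library other than replicate 1 of Tspan8negMHCIIlo was left out, with values from -7.82 to -2.70, and when all libraries were thinned to equal depth, at -6.61. Without replicate 2 of Tspan8negMHCIIlo, Ccl17 was called higher in Tspan8negMHCIIhi than in Tspan8negMHCIIlo, by 3.58 on the log2 scale, against 0.76 with it. That replicate had the 1520 CPM of thymocyte markers, and its sum of dendritic cell and macrophage markers was 140 CPM against 82.3 CPM in replicate 1. The part of other cells was not tested.

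Cx3cl1 (chr8:94772009-94782427, plus strand), a membrane-anchored chemokine, varied little across the subsets, although it lies between Ccl22 and Ccl17. It was at 103 and 73.6 CPM in Tspan8negMHCIIlo, at 45.1 and 58.7 CPM in Tspan8negMHCIIhi, at 70.5 and 76 CPM in Tspan8posMHCIIhi and at 69.8 and 80 CPM in Tspan8posMHCIIlo. Only Tspan8negMHCIIhi lay apart from the other libraries. It was lower there than in Tspan8negMHCIIlo by 0.76 on the log2 scale (log2 fold change -0.76 ± 0.190, edgeR adjusted p = 0.00809), inside the limit on the fold change. No contrast called Cx3cl1.

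The windows of these 3 neighbours are shown because their levels differed although they lie side by side, as chr8:94745434-94745733 for Ccl22, chr8:94771930-94772229 for Cx3cl1 and chr8:94810203-94810502 for Ccl17 (GRCm38.p6, plus strand, 5′ to 3′). Capitals mark a TATAAA match at bases -6 to -1 in Cx3cl1 and a TTCNNNGAA match at bases -99 to -91 in Ccl17.
Ccl22: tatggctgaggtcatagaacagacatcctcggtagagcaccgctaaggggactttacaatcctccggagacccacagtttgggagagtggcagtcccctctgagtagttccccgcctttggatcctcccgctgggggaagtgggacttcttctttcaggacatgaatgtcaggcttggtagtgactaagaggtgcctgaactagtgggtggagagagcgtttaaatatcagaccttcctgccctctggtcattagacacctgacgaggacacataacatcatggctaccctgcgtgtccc
Cx3cl1: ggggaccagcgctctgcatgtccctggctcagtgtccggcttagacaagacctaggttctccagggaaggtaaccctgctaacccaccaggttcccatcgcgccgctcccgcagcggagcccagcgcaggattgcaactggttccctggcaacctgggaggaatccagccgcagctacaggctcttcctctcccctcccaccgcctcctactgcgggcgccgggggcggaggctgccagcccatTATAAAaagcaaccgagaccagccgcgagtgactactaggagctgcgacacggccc
Ccl17: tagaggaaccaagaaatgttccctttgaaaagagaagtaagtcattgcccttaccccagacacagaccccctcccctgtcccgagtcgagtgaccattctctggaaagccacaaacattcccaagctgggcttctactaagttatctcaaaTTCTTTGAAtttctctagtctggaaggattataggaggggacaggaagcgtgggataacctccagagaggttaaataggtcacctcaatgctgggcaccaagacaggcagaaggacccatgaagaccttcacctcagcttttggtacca
Ccl22 matched none of the motifs in this window.

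Ccl5, a ligand of several receptors that attracts T cells and monocytes, was higher in both MHCIIhi subsets. It was at 8.43 and 8.96 CPM in Tspan8negMHCIIlo, at 93.6 and 116 CPM in Tspan8negMHCIIhi, at 56.2 and 48.2 CPM in Tspan8posMHCIIhi and at 7.15 and 6.28 CPM in Tspan8posMHCIIlo. No subset overlapped with another, although the MHCIIlo subsets did not differ by a call (log2 fold change -0.42, edgeR adjusted p = 0.217). Ccl5 (chr11:83525778-83530518, minus strand) was 12-fold higher in Tspan8negMHCIIhi than in Tspan8negMHCIIlo (log2 fold change 3.59 ± 0.197, edgeR adjusted p = 7.2e-07) and 7.98-fold higher in Tspan8posMHCIIhi than in Tspan8posMHCIIlo (log2 fold change 2.996 ± 0.213, edgeR adjusted p = 1.06e-05). Its replicates lay close together, and both of these calls held without any 1 library. Tspan8posMHCIIhi was 2.01-fold lower than Tspan8negMHCIIhi, at the limit on the fold change (log2 fold change -1.01 ± 0.159, edgeR adjusted p = 0.000524), and the value moved between -1.23 and -0.89 as single libraries were left out. That call was lost in 6 of these 8 fits, without replicate 2 of Tspan8negMHCIIhi or of Tspan8posMHCIIhi or without any 1 of the 4 libraries of the MHCIIlo subsets.

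Xcl1 had the fewest reads of the chemokines. Its counts were 0 and 4 in Tspan8negMHCIIlo, 16 and 63 in Tspan8negMHCIIhi, 3 and 6 in Tspan8posMHCIIhi, and 0 and 2 in Tspan8posMHCIIlo. Tspan8negMHCIIhi, at 3.33 and 8.08 CPM, was above every other library. Against Tspan8posMHCIIlo its ratio was 28.6 with a 95% counting interval from 7.67 to 241. This was the only called difference of Xcl1 (log2 fold change of Tspan8posMHCIIlo -4.62 ± 1.07, edgeR adjusted p = 0.00401). No library outside Tspan8negMHCIIhi had more than 6 counts, so Xcl1 entered the test through the subset where it was high. Its tests against that subset are therefore not independent of the selection by filterByExpr. With a stricter filter, or after thinning to equal depth, Xcl1 was not tested. The call was lost without replicate 2 of Tspan8negMHCIIhi, at -3.95, and without replicate 1 or 2 of Tspan8posMHCIIlo, at -4.30 and -7.74. Against Tspan8negMHCIIlo the difference was not called (log2 fold change 3.46 ± 0.930, edgeR adjusted p = 0.0113), but it was without replicate 2 of Tspan8negMHCIIlo, at 7.87. Xcl1 (chr1:164931644-164935527, minus strand) is best known from natural killer and T cells. Markers of natural killer and innate lymphoid cells summed to 16 and 38 CPM in Tspan8negMHCIIlo and to 13.1 and 23.5 CPM in Tspan8negMHCIIhi, while Xcl1 was at 0 and 0.943 CPM in the former. Of the 4 tested, Gzma and Nkg7 were called lower in Tspan8negMHCIIhi than in Tspan8negMHCIIlo, while Eomes was called higher (log2 fold change 3.03), at 7.07 and 9.61 CPM against 0.281 and 1.65 CPM. Of all genes, 9.67% were called lower and 13.1% higher there. The part of such cells in the level of Xcl1 was not tested.

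Cxcl10, an interferon-induced ligand of Cxcr3, separated the cells by Tspan8 more than by MHCII. It was at 1070 and 650 CPM in Tspan8negMHCIIlo, at 801 and 824 CPM in Tspan8negMHCIIhi, at 373 and 362 CPM in Tspan8posMHCIIhi and at 203 and 151 CPM in Tspan8posMHCIIlo. All libraries of the Tspan8neg subsets were above all libraries of the Tspan8pos subsets, and the Tspan8neg subsets overlapped with each other (log2 fold change -0.08, edgeR adjusted p = 0.792). Cxcl10 was 4.9-fold lower in Tspan8posMHCIIlo than in Tspan8negMHCIIlo (log2 fold change -2.29 ± 0.223, edgeR adjusted p = 1.44e-05). It was 2.21-fold lower in Tspan8posMHCIIhi than in Tspan8negMHCIIhi (log2 fold change -1.15 ± 0.212, edgeR adjusted p = 0.0015), a call lost without replicate 1 or 2 of Tspan8posMHCIIhi, at -1.14 and -1.11. The higher level in Tspan8posMHCIIhi than in Tspan8posMHCIIlo (log2 fold change 1.07 ± 0.217, edgeR adjusted p = 0.00633) was called in 2 of the 8 fits that left out 1 library, those without a replicate of Tspan8negMHCIIlo, with values from 0.86 to 1.31. Cxcl10 (chr5:92346638-92348889, minus strand) overlaps Art3 on the opposite strand.

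The promoter window of Cxcl10 is shown because it held 5 of the 9 motif matches found in the 10 windows of 9 members (Ccl25 has 2 windows). It lies at chr5:92348840-92349139 (GRCm38.p6, minus strand, 5′ to 3′). Capitals mark, in order, an ISRE match at bases -213 to -204, an NF-kB match at -159 to -150, a pair of overlapping NF-kB matches from -104 to -94, and an AP-1 match at -74 to -68.
Cxcl10: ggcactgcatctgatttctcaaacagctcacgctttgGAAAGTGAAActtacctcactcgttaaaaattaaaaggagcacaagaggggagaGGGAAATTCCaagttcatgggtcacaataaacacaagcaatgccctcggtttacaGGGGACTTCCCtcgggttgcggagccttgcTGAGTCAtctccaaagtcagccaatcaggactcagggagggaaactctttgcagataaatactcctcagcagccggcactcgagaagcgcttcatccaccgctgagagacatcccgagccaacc
These matches are letters in a window and not measured sites.

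Set side by side, the fits called 0 members higher and 6 lower in Tspan8posMHCIIlo than in Tspan8negMHCIIlo, where 21.4% of all genes tested were called in either direction, 12.1% higher and 9.34% lower. The 6 were Ccl21a, Ccl19, Ccl17, Ccl22, Cxcl12 and Cxcl10, and the median log2 fold change of the 10 members was -2.40 against -0.03 over all genes. The call of Ccl17 was lost without any 1 library other than replicate 1 of Tspan8negMHCIIlo, at -7.82 to -2.70. That of Ccl22 was lost without replicate 2 of Tspan8posMHCIIlo, at -3.16. Between the MHCIIhi subsets, 0 members were called higher and 4 lower in Tspan8pos cells, namely Ccl19, Ccl22, Ccl5 and Cxcl10, with a background of 18.5% in either direction, 11% higher and 7.45% lower. The count of 4 fell to 2 without replicate 2 of Tspan8posMHCIIhi. The members' median there was -1.08 against -0.03. Ccl19, Ccl22 and Cxcl10 were thus lower in Tspan8pos cells at both MHCII levels.

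Between the Tspan8neg subsets, 4 members were called higher in MHCIIhi (Ccl19, Ccl25, Ccl22 and Ccl5) and 2 lower (Ccl21a and Cxcl12), where 22.7% of all genes were called, 13.1% higher and 9.67% lower. The members' median of 1.04 therefore mixes both directions. Between the Tspan8pos subsets, 5 members were called higher in MHCIIhi (Ccl19, Ccl25, Ccl22, Ccl5 and Cxcl10) and 0 lower, against 7.21% of all genes called in either direction, 4.59% higher and 2.62% lower. This count of 5 fell to 2 without replicate 2 of Tspan8posMHCIIlo, the deepest library, and to 3 without replicate 1 of that subset or of Tspan8posMHCIIhi. Ccl19, Ccl25, Ccl22 and Ccl5 were higher with MHCII in both Tspan8neg and Tspan8pos cells. These contrasts compare different libraries, but they come from the same fit and share its estimate of the spread. With copies added, Ccl19 between the Tspan8neg subsets was at 0.87, under the limit on the fold change. Between the Tspan8pos subsets, the calls of Ccl25 and Ccl22 were lost without some single libraries, at 2.23 to 2.33 for Ccl25 and at 3.51 for Ccl22.

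**Figure D3:**
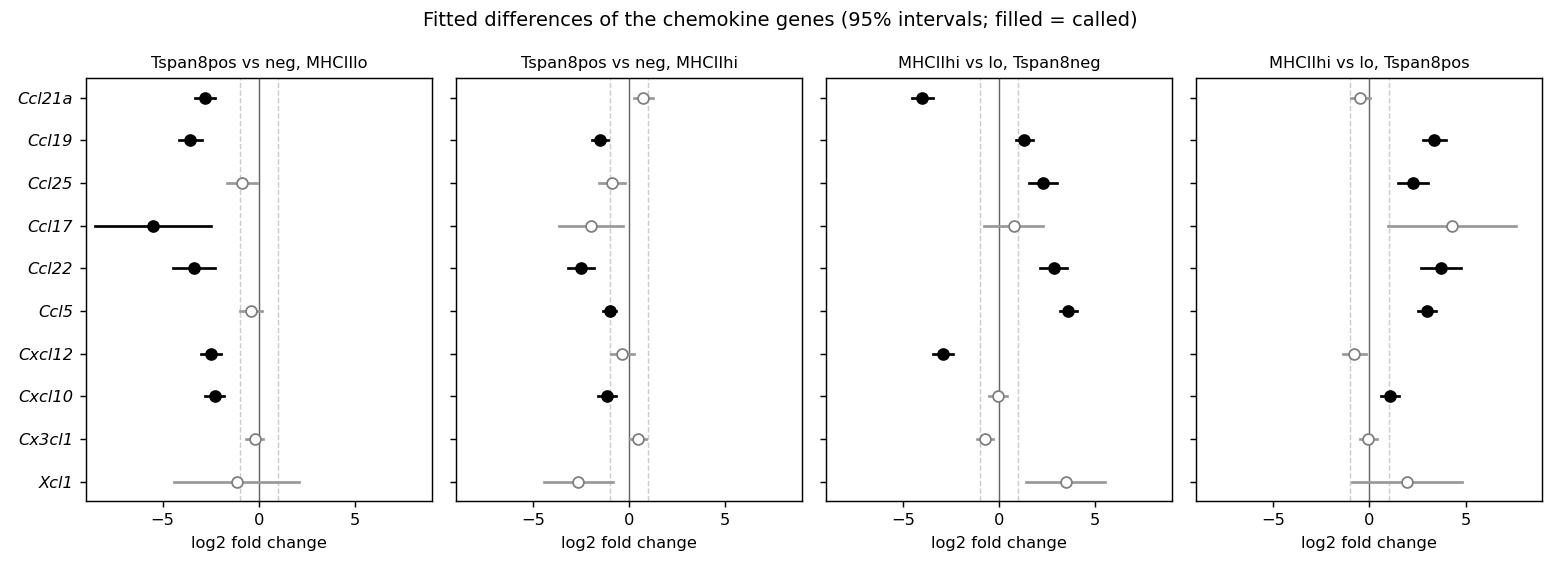
Fitted log2 fold changes of the 10 chemokine genes in the 4 contrasts within an MHCII or Tspan8 level, with 95% intervals; filled points are called and dashed lines mark the limit on the fold change. Every called point of the Tspan8 contrasts lies left of 0, and in the MHCII contrasts Ccl21a and Cxcl12 are the called points left of 0.

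Across the diagonal, Tspan8posMHCIIlo had 1 member called higher than Tspan8negMHCIIhi (Ccl21a) and 7 lower, where 29.3% of all genes were called, 14.7% higher and 14.6% lower. The 2 not called were Cxcl12 and Cx3cl1. Of the 7, Ccl17 and Xcl1 lost their calls without replicate 2 of Tspan8negMHCIIhi, at -5.94 and -3.95. They also lost them without replicate 1 or 2 of Tspan8posMHCIIlo, at -6.02 and -8.57 for Ccl17 and at -4.30 and -7.74 for Xcl1. Xcl1 entered the test through Tspan8negMHCIIhi, so its call here is not independent of that selection and should not be set against the share of all genes. Tspan8posMHCIIhi had 2 members called higher than Tspan8negMHCIIlo, Ccl25 (log2 fold change 1.39) and Ccl5 (2.58), and 3 lower, Ccl21a, Cxcl12 and Cxcl10, against 24.7% of all genes, 14.4% higher and 10.3% lower. The call of Ccl25 was lost without replicate 1 of Tspan8negMHCIIlo, at 0.88, and without any 1 library of the Tspan8pos subsets, at 1.35 to 1.45. The call of Cxcl10 there, at -1.22, was lost without replicate 1 of Tspan8negMHCIIlo, at -0.81, and without replicate 1 or 2 of Tspan8posMHCIIhi, at -1.23 and -1.20.

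The difference between the Tspan8 fold changes in MHCIIlo and MHCIIhi cells, tested as an interaction, was called for Ccl21a, Ccl19 and Cxcl12, against 4.6% of all genes in either direction, 2.36% with the higher and 2.24% with the lower ratio in MHCIIlo. Ccl21a had a log2 fold change of -2.81 with Tspan8 in MHCIIlo and of 0.73 in MHCIIhi cells (interaction -3.54 ± 0.322, edgeR adjusted p = 0.000234), and this was called without any 1 library. Ccl19 was lower with Tspan8 at both levels, more so in MHCIIlo (interaction -2.07 ± 0.336, edgeR adjusted p = 0.00323). Its call was lost without replicate 1 or 2 of Tspan8negMHCIIhi, at -1.93 and -2.07, and without replicate 2 of Tspan8posMHCIIhi or Tspan8posMHCIIlo, at -1.89 and -1.49. Cxcl12 (interaction -2.15 ± 0.360, edgeR adjusted p = 0.00384) lost its call without replicate 1 or 2 of Tspan8negMHCIIhi, at -2.02 and -2.18, without replicate 2 of Tspan8posMHCIIhi, at -1.78, and without replicate 1 or 2 of Tspan8posMHCIIlo, at -2.21 and -2.12. For Cxcl10 the interaction was not called (-1.15 ± 0.300, edgeR adjusted p = 0.0308), but without replicate 2 of Tspan8negMHCIIlo it was, at -1.48.

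Compared per kilobase of merged exons, Ccl21a was the most abundant of the 10 in Tspan8negMHCIIlo, at 4080 CPM per kb, ahead of Cxcl10 at 381 CPM per kb and Ccl19 at 75.1 CPM per kb. In Tspan8negMHCIIhi the order was Cxcl10 at 361, Ccl21a at 255, Ccl19 at 186, Ccl5 at 109 and Ccl22 at 92 CPM per kb. Ccl21a led again in Tspan8posMHCIIhi, at 423 CPM per kb, and in Tspan8posMHCIIlo, at 587 CPM per kb, with Cxcl10 next at 163 and 78.5 CPM per kb. Ccl21a thus took between 74.4 and 75.9% of the members' counts in Tspan8negMHCIIlo and between 11.2 and 13.1% in Tspan8negMHCIIhi. All 10 together made up between 0.0636% of a library's counts, in replicate 2 of Tspan8posMHCIIlo, and 0.58%, in replicate 1 of Tspan8negMHCIIlo. With the longest transcript as the length, the first 2 places in each subset were the same, while Ccl25 moved from place 9 to 5 in Tspan8negMHCIIlo.

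The rest of the ligand family, 28 genes of which 23 were tested, moved with Tspan8 in both directions. In Tspan8posMHCIIlo against Tspan8negMHCIIlo 10 were called higher and 4 lower, with a median log2 fold change of 1.30, against 12.1% of all genes called higher and 9.34% lower, where the 10 members had 0 higher and 6 lower. In Tspan8posMHCIIhi against Tspan8negMHCIIhi the counts were 7 higher and 3 lower, against 11% and 7.45% of all genes. Cxcl16, a membrane-bound ligand of Cxcr6, was higher in Tspan8pos cells at both MHCII levels, at 169 and 108 CPM in Tspan8negMHCIIlo against 334 and 344 CPM in Tspan8posMHCIIlo. Ccl20, the ligand of Ccr6, rose from 16 and 60.1 CPM to 169 and 193 CPM (log2 fold change 2.23, edgeR adjusted p = 0.00116). Ccl9 was higher in Tspan8pos cells by 2.03 and 2.46 on the log2 scale. The neutrophil attractants Cxcl2 and Cxcl1 were higher in Tspan8negMHCIIhi than in Tspan8negMHCIIlo, by 3.18 and 1.72 on the log2 scale. Cxcl9, which shares the receptor Cxcr3 with Cxcl10, was lower in Tspan8posMHCIIlo than in Tspan8negMHCIIlo, at 19.2 and 23.2 CPM against 71.6 and 38 CPM, and lower by 1.21 on the log2 scale (log2 fold change -1.21) between the MHCIIhi subsets. Unlike Cxcl10 it was called higher in Tspan8negMHCIIhi than in Tspan8negMHCIIlo (log2 fold change 1.55, edgeR adjusted p = 0.000514). Whether Cxcl9 and Cxcl10 differed in that contrast was not tested.

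**Figure D4:**
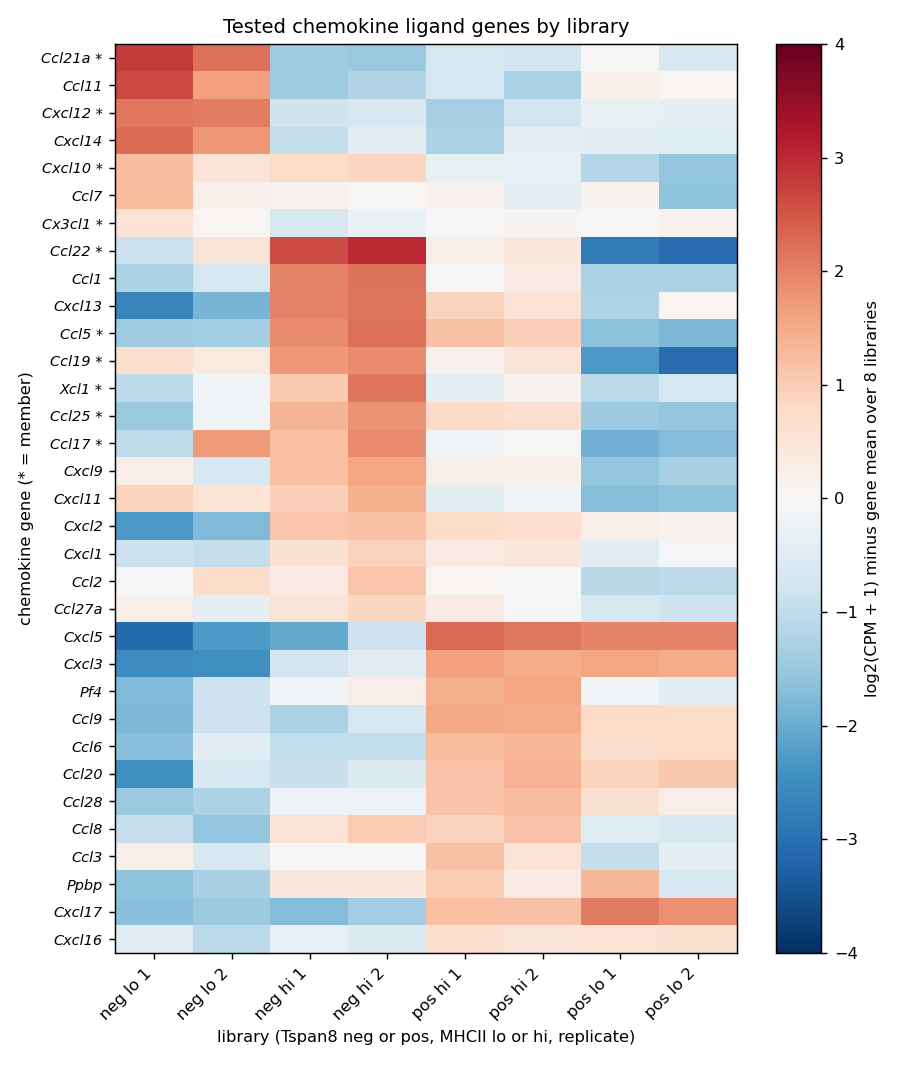
log2(CPM + 1) of the 33 tested chemokine ligand genes (rows, members starred) in the 8 libraries (columns), each minus the gene's mean over the libraries; genes are grouped by the subset with the highest mean. Most members are red in a Tspan8neg subset, and none has its highest mean in a Tspan8pos subset.

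The receptors for these ligands were measured in the same libraries, which also held counts of thymocyte, dendritic cell and macrophage markers. Which cells the receptor transcripts came from was not tested. Of 23, 19 were tested, and 0 were called higher and 3 lower in Tspan8posMHCIIlo than in Tspan8negMHCIIlo, where 12.1% of all genes were called higher and 9.34% lower. In Tspan8negMHCIIhi against Tspan8negMHCIIlo, 6 were higher and 1 lower, against 13.1% and 9.67% of all genes. Ccr7, the receptor of Ccl19 and Ccl21a, was at 44.4 and 56.6 CPM in Tspan8negMHCIIlo, at 150 and 143 CPM in Tspan8negMHCIIhi, at 45.2 and 48 CPM in Tspan8posMHCIIhi and at 10.4 and 12 CPM in Tspan8posMHCIIlo, the order seen for Ccl19. Ccr4, the receptor of Ccl17 and Ccl22, was higher in MHCIIhi cells, by 3.62 on the log2 scale among Tspan8neg and 2.66 among Tspan8pos cells. Cxcr4 was lower in Tspan8posMHCIIlo than in Tspan8negMHCIIlo (log2 fold change -1.91, edgeR adjusted p = 0.00425). It was highest, at 67.4 CPM, in the library with most thymocyte marker counts. The part of thymocytes in the level of Cxcr4 was not tested. Ackr4, a scavenger of Ccl19, Ccl21 and Ccl25, was at 21.3 and 25.9 CPM in Tspan8negMHCIIlo, at 2.5 and 1.54 CPM in Tspan8negMHCIIhi and at 50 and 44.9 CPM in Tspan8posMHCIIlo. Ccrl2 was higher in MHCIIhi cells, by 1.53 and 1.34 on the log2 scale among Tspan8neg and Tspan8pos cells.

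**Figure D5:**
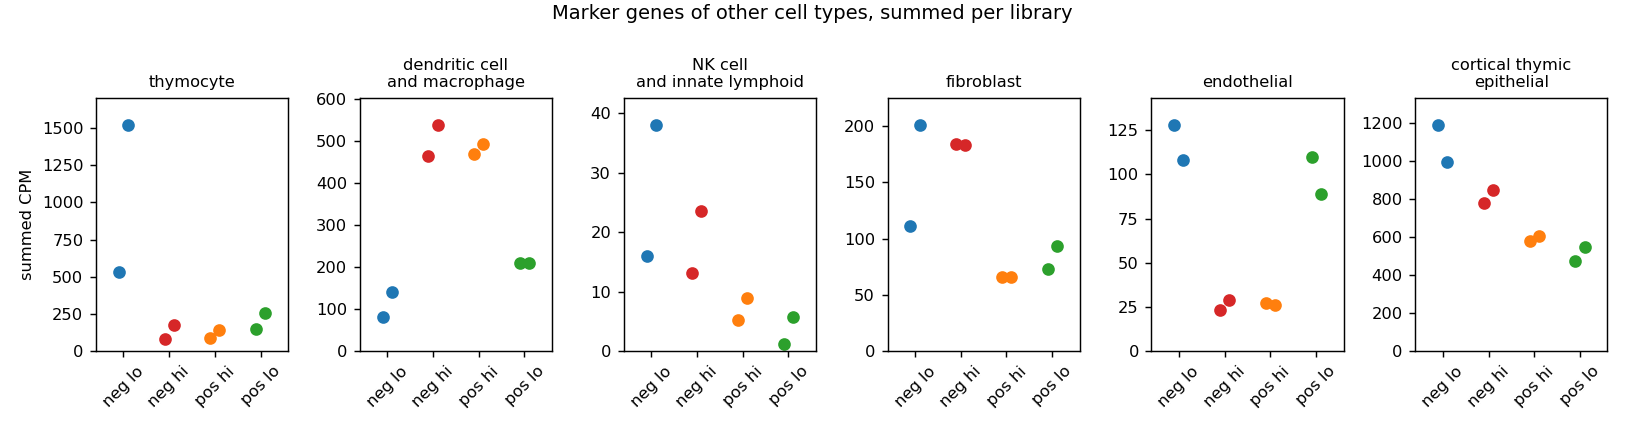
Summed CPM (linear axes that start at 0) of marker genes of other cell types in the 8 libraries, by subset; each point is a library. Thymocyte markers are highest in both libraries of Tspan8negMHCIIlo, at 534 and 1520 CPM, and endothelial markers in both MHCIIlo subsets.

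Many interferon-induced genes were lower in Tspan8negMHCIIhi than in Tspan8negMHCIIlo, a contrast in which Cxcl10 was not called. Of 21 tested, Cxcl9 among them, 2 were called higher and 11 lower in Tspan8negMHCIIhi than in Tspan8negMHCIIlo, with a median log2 fold change of -1.14, where Cxcl10 differed by -0.08 and 13.1% of all genes were called higher and 9.67% lower. Irf7, a transcription factor of the interferon response, was at 276 and 233 CPM in Tspan8negMHCIIlo, at 52.4 and 58.7 CPM in Tspan8negMHCIIhi, at 207 and 224 CPM in Tspan8posMHCIIhi and at 420 and 392 CPM in Tspan8posMHCIIlo. Stat2, Irf9, Isg15 and Oas1a were likewise called lower in Tspan8negMHCIIhi than in Tspan8negMHCIIlo, by -1.92, -1.35, -1.59 and -1.14 on the log2 scale, while Oasl1 was higher by 1.34. Between the MHCIIhi subsets, where Cxcl10 was lower with Tspan8, 4 of the 21 were called higher and 1, Cxcl9, lower (log2 fold change -1.21), against 11% and 7.45% of all genes, and Irf7 and Isg15 were higher by 1.95 and 1.65 on the log2 scale. In Tspan8posMHCIIlo against Tspan8negMHCIIlo, where Cxcl10 was lower by 2.29 on the log2 scale (log2 fold change -2.29), 7 of the 21 were called lower and 1, Oasl1, higher, against 9.34% and 12.1% of all genes. The 7 were Cxcl9, Gbp2, Gbp3, Ifi44, Ifit2, Ifit3 and Mx2, with log2 fold changes from -1.86 to -1.15.

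For each member, the genes outside these lists with the most similar log2 CPM over the 8 libraries were taken among the 10962 genes whose mean reached 10 CPM. The values are descriptions, since the libraries share 4 subsets. Ccl21a was most like Plxnb1 and Tagln (Pearson's r = 0.993 for both), Cxcl12 like Fzd2 (0.993), and Cxcl10 like Tubb6 (0.992). Among those highest in Tspan8negMHCIIhi, Ccl22 was most like Irf4 (0.992), Ccl19 like Grp (0.990) and Ciita (0.989), the regulator of MHCII genes, Ccl25 like Gpr162 (0.991), Ccl5 like AI506816 (0.997), and Xcl1 like Mtmr9 (0.984). Cx3cl1 had the weakest best match, Zcchc8 (0.949). With Spearman's correlation in place of Pearson's, only Ccl17 kept 1 of its 2 most similar genes, so the names depend on the measure.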

How the data were processed

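RNA-seq libraries of sorted mTECs were assigned to subsets from their descriptions. The single table that the authors deposited gives estimated counts, unnormalized and already whole, so rounding them left every value as it was. The submitters' processing notes name Salmon 1.8.0 and DESeq2 1.30.0, and the study quantified single-end reads of 54 bases on Gencode M10. Symbols and coordinates came from Gencode M21, which matched 25336 of 25466 identifiers (99.49%), both on GRCm38. The paper describes pre-amplified, tagmented cDNA, whereas the labels name a kit that keeps the strand.

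The quasi-likelihood test of edgeR 4.0.16 (R 4.3.3) was fitted to all 8 libraries together, with TMM, filterByExpr and 1 coefficient for each subset (common dispersion 0.024). P-values are two-sided and adjusted by the Benjamini-Hochberg method over 17006 genes, and calls needed an adjusted p under 0.01 and a log2 fold change of at least 1 in size. Standard errors were derived from the F statistic. Contrasts were the 6 pairs of subsets and the interaction. With 2 libraries a group, no exact permutation test reaches 0.05. Intervals of count ratios and the floor of 3 counts cover counting error only, since amplified reads are not independent molecules. Copies were found with BLAST 2.17.0 on transcripts, at 90% identity or more. The scripts were tested on simulated data.

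All members were described. The further genes named are up to 6 of each list with the highest mean CPM among those called within a Tspan8 or MHCII level, Tspan8 and H2-Ab1 as checks of the sort, single marker genes, and the 2 genes most like each member. A gene that this rule also names is not reported here. The members, lists and tests were chosen with earlier results of these data known, and the single markers of non-epithelial cells and the 7 interferon-induced genes lower in Tspan8posMHCIIlo were picked from their lists after their values were seen. Alternatives were DESeq2 1.42.0, other scaling and filters, the libraries of a contrast alone, the replicate block, thinning to 1941518 counts, added copies, other thresholds, and leaving out each library in turn. Of 10 members, 9 matched a RefSeq promoter window.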

Additional observations from a re-analysis of the deposited data

Results flagged for a closer look

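For 3 of the 10 chemokines, the difference between Tspan8pos and Tspan8neg cells was called as not the same at the MHCII levels, by the interaction test in edgeR. Of all genes tested, 4.6% were called in this test. The log2 fold change with Tspan8 in MHCIIlo minus that in MHCIIhi cells was -3.54 for Ccl21a, -2.07 for Ccl19 and -2.15 for Cxcl12. Ccl21a and Cxcl12 were lower with Tspan8 in MHCIIlo cells (log2 fold changes -2.81 and -2.50) and not called in MHCIIhi cells, and Ccl19 was called lower in both. All 4 subsets enter each of these interactions. The calls of Ccl19 and Cxcl12 were each lost without some single libraries, none of them of Tspan8negMHCIIlo. With 1 library left out, the values were -2.38 to -1.49 for Ccl19 and -2.49 to -1.78 for Cxcl12. The call of Ccl21a was kept throughout, at -3.94 to -3.24. The replicates of Tspan8negMHCIIlo differed most in thymocyte markers, at 534 and 1520 CPM. The part of that difference in the results was not tested.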

How the results depend on the processing

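Of 1092 single-gene values under the alternatives, 990 kept their direction and side of the thresholds, 55 lost and 21 gained a call, and 26 changed sign, none of these in a called value. Leaving out 1 library, where a lone library is assumed to vary like the others, moved the lower calls between the MHCIIhi subsets from 4 to between 2 and 5. It moved the higher calls from 5 to between 2 and 6 for Tspan8posMHCIIhi against Tspan8posMHCIIlo, from 1 to between 0 and 1 for Tspan8posMHCIIlo against Tspan8negMHCIIhi, and from 2 to between 1 and 3 for Tspan8posMHCIIhi against Tspan8negMHCIIlo, and the interaction calls from 3 to between 1 and 4. With the 4 libraries of the contrast alone, Tspan8posMHCIIhi against Tspan8negMHCIIlo had 1 member called higher, since Ccl25 had 1.43 (edgeR adjusted p = 0.0133). The same setting also called Ccl17 (-1.98, edgeR adjusted p = 0.000949) and Xcl1 (-2.66, edgeR adjusted p = 0.00316) lower in Tspan8posMHCIIhi than in Tspan8negMHCIIhi. Ccl17 was then called higher in Tspan8posMHCIIhi than in Tspan8posMHCIIlo as well (4.33, edgeR adjusted p = 0.00704). The replicate block, as a paired fit, added the calls of Xcl1 between the Tspan8neg subsets (3.58, edgeR adjusted p = 0.00452) and of Cxcl10 in the interaction (-1.12, edgeR adjusted p = 0.00591), and changed no other call of a member. The deviations of same-numbered libraries correlated positively but weakly in all 6 pairs of subsets (r from 0.0121 to 0.124 across genes), 4 of them under 0.1, and no source used here says that a number marks shared mice, so the numbers were not taken to pair the libraries. Over all genes the interaction calls went from 783 to 1236 with the block, 1267 without a filter and 1754 at an adjusted p of 0.05, and to between 189 and 1385 with 1 library left out.

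DESeq2 and the fit without a filter also called the interaction of Cxcl10 (-1.08 in both). At equal depth, Ccl17 in Tspan8posMHCIIlo against Tspan8negMHCIIlo was at -6.61 (edgeR adjusted p = 0.0101). Signs changed for small or thinly counted differences, and the cause was not tested. For Cxcl10 between the Tspan8neg subsets, DESeq2 gave 0.00262, its size factors 0.00416, and left-out libraries -0.40 to 0.32. For Ccl25 in the interaction, DESeq2 gave 0.0657, its size factors 0.0557, no filter 0.0576, the stricter filter 0.0283, thinning 0.116, and left-out libraries -0.57 to 0.85. For Cx3cl1 in Tspan8posMHCIIhi against Tspan8posMHCIIlo, thinning gave 0.0255 and left-out libraries -0.103 to 0.0719. Left-out libraries gave -4.29 to 3.27 for Xcl1 and -0.442 to 0.0364 for Cx3cl1 in Tspan8posMHCIIlo against Tspan8negMHCIIlo, and -0.10 to 3.58 for Ccl17 between the Tspan8neg subsets. For Tspan8posMHCIIhi against Tspan8negMHCIIlo they gave -0.0415 to 5.23 for Xcl1, -0.491 to 0.00872 for Cx3cl1, -0.17 to 1.24 for Ccl22, -2.06 to 1.61 for Ccl17 and -0.363 to 0.00877 for Ccl19. In the interaction they gave -1.66 to 5.91 for Xcl1 and -1.42 to 0.0171 for Ccl22. Counts of 0 to 6 limit Xcl1 outside Tspan8negMHCIIhi.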
